A study of Glycine max with 16 samples.

Results

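The response to combined heat and water stress was examined in soybean seeds at R7, the stage at which the first pod on the main stem takes on its mature colour. The comparison was chosen by the labels, as the 3 arrays of stressed R7 seeds against the 2 arrays of non-stressed R7 seeds, out of 16 arrays analysed for R6, R7 and R8 seeds. All samples were whole seeds (seed coat and embryo) of the cultivar MG/BR 46 (Conquista), which is susceptible to retaining green seeds. Stressed plants had been moved at R5.5 into a greenhouse with a mean day temperature of 39.5 °C and received water only once they wilted. Non-stressed plants stayed in the polytunnel at field capacity. Each array stands for 1 biological replicate of at least 50 seeds by the labels, and the paper's methods say that the pots were combined in pairs to make the replicates. Stressed R6 and R8 seeds have 3 arrays each, non-stressed R6 seeds have 3 and non-stressed R8 seeds have 2. The study judged its R7 samples to be a mixture of seeds that had lost different amounts of chlorophyll. Of its array data it took only R6 and R8 further. By its figure captions, its green seed percentages, chlorophyll contents and RT-qPCR values include R7.

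Between R6 and R8 a soybean embryo ends reserve synthesis, loses its chlorophyll and dries. Transcripts of storage globulins, lectins and trypsin inhibitors are abundant during filling and then decline, while transcripts of late embryogenesis abundant (LEA) proteins, which accompany desiccation tolerance, stay abundant into the dry seed. Stay-green proteins start chlorophyll breakdown by removing magnesium from chlorophyll, and heat or drought during this period can leave seeds green.

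Signals are log2 values on 1 scale for all arrays, a difference of 1 is a 2-fold change, and other organisms' probe sets, which mark the background, reached 0.90 at their 95th percentile. A fold change is given as the log2 difference, stressed minus non-stressed at the stage named, unless it is written as a number of folds. The value after ± is its standard error (SE), and each adjusted p is from limma. A probe set was called when its adjusted p was at most 0.05 and it changed at least 2-fold. In bulk seeds, fewer cells of a type and less RNA per cell cannot be told apart. Different probe sets of 1 gene family may share targets, so members of the glycinin, trypsin inhibitor, lipoxygenase and tubulin families are uncertain as single genes. Signals of different genes are not compared as amounts.

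The 2 non-stressed R7 arrays stood apart in their control probe sets. The median log2 signal over the ribosomal RNA probe sets was 9.18, 9.0 and 8.97 on stressed R7 replicates 1 to 3, against 6.30 and 7.57 on non-stressed R7 replicates 1 and 2, and 8.17 to 8.76 on the other 11 arrays. The signal of the actin control at its 3′ end exceeded that at its 5′ end by 2.45, 2.27 and 2.63 on the stressed R7 arrays, against 4.26 and 3.18 on the non-stressed R7 arrays and 1.56 to 2.69 on the other 11. These 2 measures therefore separate the conditions at R7, and their part in the results was not tested. Of the reserve genes that mark the embryo, the 7 with a probe set had log2 signals of 2.05 to 11.29 in stressed and of 2.56 to 12.78 in non-stressed R7 seeds, and CG-1 was the only 1 of the 7 below 8. The seed coat markers were low, with SCB1 at 0.46 to 0.54 in stressed and 0.39 to 0.57 in non-stressed R7 seeds, Ep at 0.57 to 1.01 and 1.24 to 1.76, and HPS at 2.29 to 2.91 and 3.20 to 3.41 in the same order. Root nodule markers had no uniquely named probe set.

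**Figure D1:**
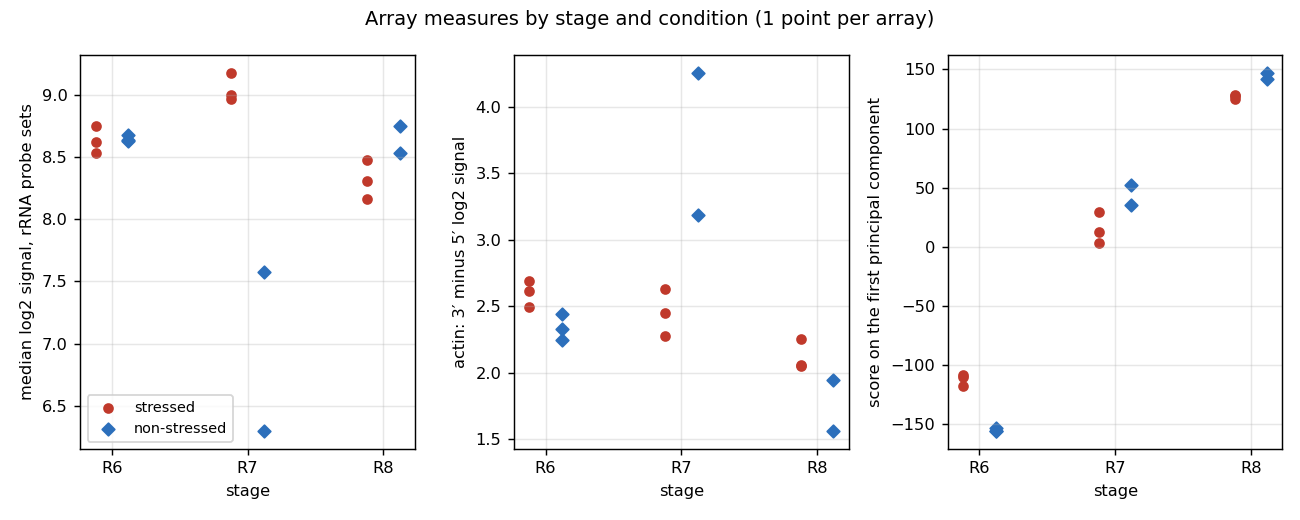
Median log2 signal of ribosomal RNA probe sets, the actin 3′ minus 5′ log2 signal and the score on the first principal component, by stage, with 1 point per array (red circles stressed, blue diamonds non-stressed). The 2 non-stressed R7 arrays lie lowest of the 16 arrays in ribosomal RNA signal and highest in actin difference, and the R7 arrays of both conditions lie between R6 and R8 on the component.

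Stress changed a large part of the measured transcripts at R7, and more of them fell than rose. Of 19194 probe sets, 3563 were called, which is 18.6% of those tested. Of these, 1270 rose (6.62%) and 2293 fell (11.9%). The change was over 4-fold for 480 of them, of which 367 fell, and over 8-fold for 10 that rose and 53 that fell. Arrays of the 2 conditions did not overlap for 63.9% of all probe sets. The median log2 fold change was -0.055. With the medians of all arrays set to one value it was 0.055, and the split was then 1651 higher and 1894 lower, so that rises made up 46.6% of calls in place of 35.6%. After a further quantile normalization, 1534 were higher and 1866 lower (45.1%). The excess of falls was therefore smaller under both other scalings.

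Most falls concerned transcripts that normally increase late in maturation. The course of maturation was taken from the non-stressed R6 and R8 arrays, which share no array with the R7 groups. Of the 2293 probe sets that fell under stress at R7, 1436 (62.6%) rose from R6 to R8 in non-stressed seeds and 310 (13.5%) declined, while over all probe sets 32.5% rose and 30.3% declined. Of the 1270 that were higher in stressed R7 seeds, 505 (39.8%) declined over maturation and 212 (16.7%) rose. On a scale on which non-stressed R6 seeds are 0 and non-stressed R8 seeds are 1, the 6234 probe sets that rise over maturation had a median position of 0.43 in stressed R7 seeds and 0.67 in non-stressed R7 seeds. The single arrays stood at 0.35, 0.44 and 0.51 under stress, against 0.65 and 0.71 without it, and did not overlap. For the 5815 probe sets that decline over maturation the positions were 0.56 in stressed and 0.64 in non-stressed R7 seeds, with 0.54, 0.53 and 0.59 on the stressed arrays, against 0.62 and 0.66 on the non-stressed arrays.

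**Figure D2:**
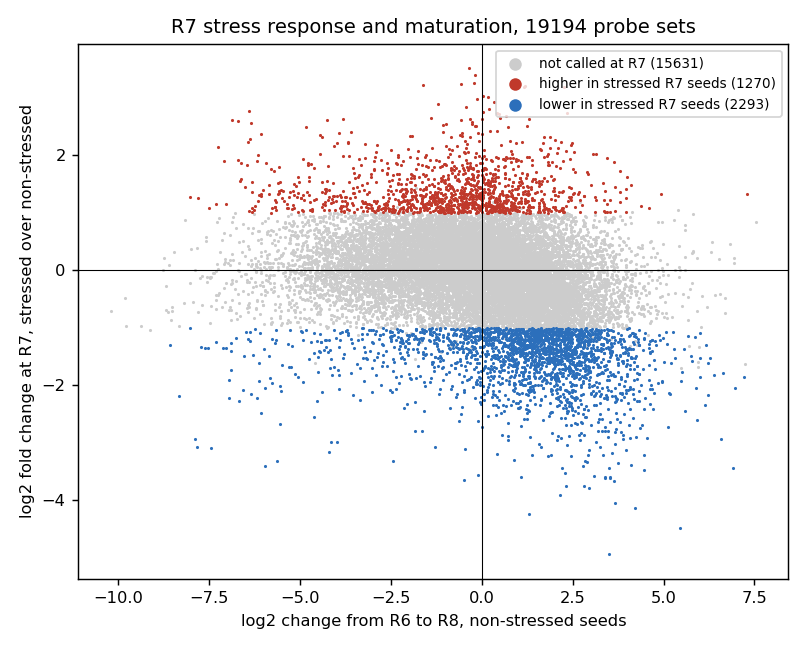
Log2 fold change at R7 (stressed over non-stressed) against the log2 change from R6 to R8 in non-stressed seeds, with 1 point per probe set for 19194 probe sets. Of the 2293 probe sets that were lower in stressed R7 seeds (blue), 1436 lie among those that rose over maturation, to the right.

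The stressed R7 arrays were not equally far from the non-stressed ones. Stressed replicate 3 was the nearest of the stressed arrays to the non-stressed mean for 1980 of the 2293 probe sets that fell (86.3%) and for 973 of the 1270 that rose (76.6%). Its score on the first principal component was 29.0, beside 3.09 and 12 for stressed replicates 1 and 2, against 35.5 and 52.0 for the non-stressed replicates. Without stressed replicate 3 the calls numbered 4417, and without stressed replicate 1 they numbered 2817.

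Among the 4363 genes that have a probe set of their own, 529 were called (12.1%), with 229 higher (5.25%) and 300 lower (6.88%) in stressed R7 seeds. Among the largest falls with a gene name were seed reserve and defence proteins that are abundant in filling seeds. LOX2, a seed lipoxygenase that oxidises polyunsaturated fatty acids, had log2 signals of 6.88, 6.96 and 7.23 in stressed R7 seeds, against 9.81 and 9.59 in non-stressed R7 seeds, a fold change of -2.68 ± 0.16 (SE, adjusted p = 7.48e-07). KTI3, the Kunitz trypsin inhibitor of the seed, gave 8.42, 9.09 and 9.23 under stress, against 11.35 and 11.42 without it (-2.47 ± 0.19, adjusted p = 6.2e-06). In both genes each stressed array lay more than 2 units below each non-stressed array. KTI1, a second Kunitz inhibitor, behaved alike, with 7.97, 8.57 and 8.84 against 10.74 and 10.69 (-2.26 ± 0.19, adjusted p = 9.69e-06).

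Storage globulins were lower in the same way. Of 11 seed storage protein genes measured, 4 fell and none rose, and their median log2 fold change was -0.68, beside 0.06 over all genes. CG-BETA-1, the beta subunit of conglycinin, had 8.86, 9.35 and 9.78 in stressed R7 seeds, against 11.63 and 11.26 in non-stressed R7 seeds (-2.12 ± 0.23, adjusted p = 3.61e-05). GY1, a glycinin, had 10.26, 10.77 and 11.29 under stress, against 12.78 and 12.74 without it (-1.99 ± 0.34, adjusted p = 0.00051). The non-stressed GY1 signals lie close to 13.28, the highest value of any array, where a difference can be understated. GY5, another glycinin, had 9.59, 9.86 and 9.94, against 11.15 and 11.07 (-1.31 ± 0.17, adjusted p = 0.000102). BG7S-1, a basic 7S globulin, changed least of the 4 (-1.01 ± 0.16, adjusted p = 0.000313), was at -0.90 with the medians set to one value and was not called without stressed replicate 1 or non-stressed replicate 1. The other 7 had fold changes of -0.84 to -0.07. Of these, GY2 was at -0.68 by the probe set with its highest signal and fell by its other probe set (-1.33, adjusted p = 0.00529).

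Further genes of the filling seed fell with them. P34, a seed vacuolar protein of the papain family and a known allergen, had 9.10, 9.50 and 9.59 in stressed R7 seeds, against 11.43 and 11.01 in non-stressed R7 seeds (-1.82 ± 0.19). LOC547931, the seed beta-amylase, had 6.01, 6.46 and 6.98, against 8.78 and 8.62 (-2.22 ± 0.24). LOX1.1, a second seed lipoxygenase, was 2.13-fold lower and was at -0.98 with the medians set to one value. FAD3B, a desaturase that makes linolenic acid, was 2.56-fold lower, and SFERH-2, a ferritin subunit, 2.52-fold lower. In each of these 5 genes no stressed array reached a non-stressed one. Without non-stressed replicate 1, the array farthest apart in its controls, KTI3 was at -2.50, GY1 at -1.97, LOX2 at -2.56 and P34 at -1.61. Replicate 2, the only non-stressed R7 array then left, also lay outside the range of the other 11 arrays in ribosomal RNA and actin. This fit therefore cannot tell the stress from the difference in controls.

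Not all reserve and inhibitor genes were called. Of 11 protease inhibitors, 2 fell (KTI3 and KTI1) and 1 rose. The gene that rose was BBI-2, a Bowman-Birk inhibitor, with 3.86, 4.42 and 2.96 in stressed R7 seeds, against 2.17 and 1.97 in non-stressed R7 seeds (1.68 ± 0.38, adjusted p = 0.00276). BBI was at -0.57 ± 0.14, under 2-fold, with 11.15 to 11.27 in stressed and 11.76 to 11.82 in non-stressed R7 seeds. LOX3, the third seed lipoxygenase, was at -0.16 ± 0.11, and its other probe set was at -0.78 (adjusted p = 0.0045), also under 2-fold. Another probe set of the inhibitor gene BBI-1 was called higher (1.38). The sucrose-binding protein gene SBP2 was at -0.07, and in the list of oil synthesis genes 1 of 19 fell (FAD3B) and 1 rose (FAD2-3, an oleate desaturase, at 1.24 ± 0.22 and at 0.79 without non-stressed replicate 1). Another probe set of FAT1, a member of that list that was not called, was called higher (2.02).

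Several reserve genes responded in opposite directions at R7 and R8. At R6 the fold changes of KTI3, KTI1, GY1, GY5, CG-BETA-1 and P34 lay between -0.14 and 0.03, and KTI3 was at 12.52 in stressed and 12.53 in non-stressed seeds. At R8 KTI3 was at 9.70 in stressed and 6.46 in non-stressed seeds, a fold change of 3.25 (adjusted p = 4.93e-08). The response at R7 minus that at R8 was -5.72 for KTI3 (adjusted p = 2.16e-08), -5.19 for GY5, -4.51 for GY1, -3.24 for P34 and -3.95 for LOC547931. Over the storage protein list, this difference was called below 0 for 10 of 11 genes, beside 14.1% of all probe sets. LOX2 and CG-BETA-1 fell at R7 only, with R8 fold changes of -0.07 and 0.14, and their R7 minus R8 differences were -2.61 and -2.26, both called. In stressed seeds the mean of KTI3 was 8.91 at R7 and 9.70 at R8, and that of GY1 was 10.77 and 12.91, whereas in non-stressed seeds both means were higher at R7 (11.38 and 12.76) than at R8 (6.46 and 10.39).

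**Figure D3:**
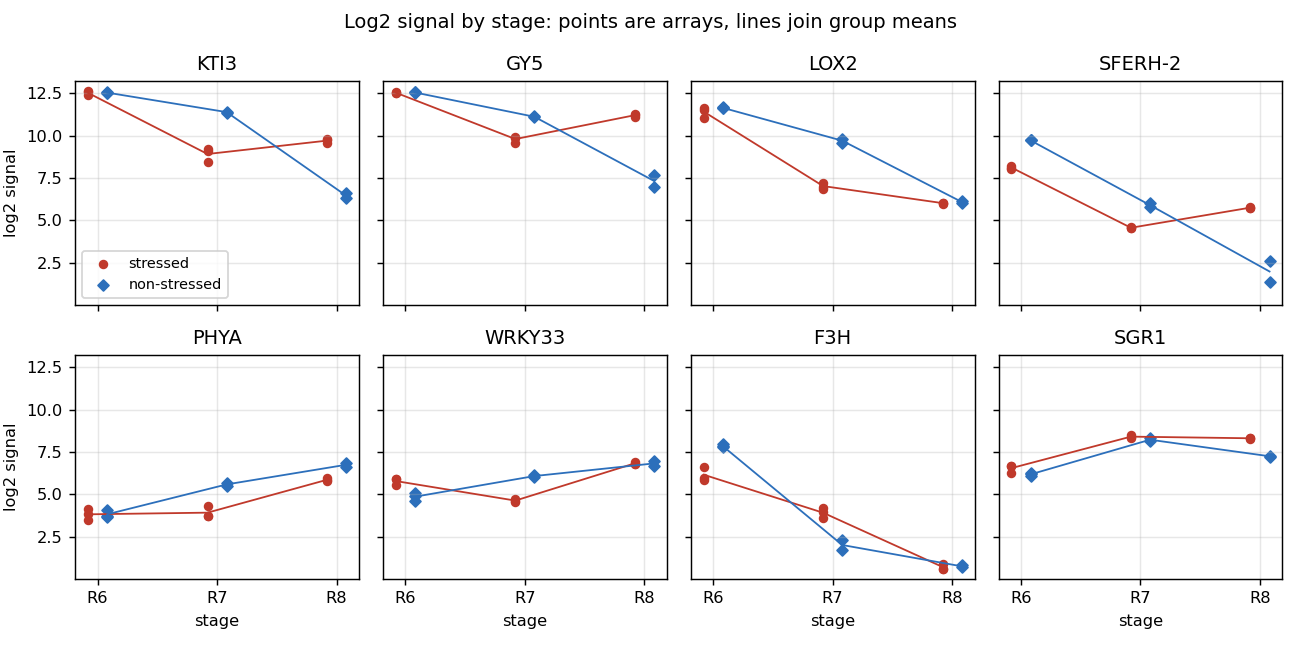
Log2 signal at R6, R7 and R8 of KTI3, GY5, LOX2, SFERH-2, PHYA, WRKY33, F3H and SGR1, with 1 point per array and lines joining the means (red circles stressed, blue diamonds non-stressed). The stressed line of KTI3 lies below the non-stressed line at R7 (8.91 and 11.38) and above it at R8 (9.70 and 6.46), while the lines of SGR1 lie close together at R7 (8.41 and 8.23).

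PHYA, EIN4 and CDPK also fell. PHYA, the photoreceptor phytochrome A, had 3.70, 3.75 and 4.32 in stressed R7 seeds, against 5.68 and 5.50 in non-stressed R7 seeds (-1.67 ± 0.21, adjusted p = 9.27e-05). EIN4, an ethylene receptor, had 2.85, 3.28 and 3.95, against 5.11 and 5.17 (-1.78 ± 0.30, adjusted p = 0.000483). CDPK, a calcium-dependent protein kinase, had 2.00, 2.56 and 3.50, against 4.75 and 4.93 (-2.15 ± 0.34, adjusted p = 0.000323). In all 3 the stressed replicate 3 was the nearest to the non-stressed arrays. The conditions did not overlap, as for 63.9% of all probe sets. At R6 the fold changes of PHYA, EIN4 and CDPK were -0.00, -0.13 and 0.09, and the R7 minus R6 difference was called for each. Of the 18 calcium signalling, kinase and phosphatase genes measured, CDPK fell, 1 rose and 16 were not called.

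Over all genes 6.88% fell and 5.25% rose. Of 21 WRKY genes measured, 4 fell and 1 rose. WRKY33 had 4.62, 4.54 and 4.75 in stressed R7 seeds, against 6.03 and 6.14 in non-stressed R7 seeds (-1.45 ± 0.16), with means of 6.83 in both conditions at R8. WRKY23, WRKY36 and WRKY34 fell by 1.42, 1.20 and 1.18 on the log2 scale. WRKY6 rose (1.11 ± 0.19) but not without non-stressed replicate 2, and was picked out after its value was seen. Of 14 NAC genes 3 fell and none rose, although 2 further probe sets of NAC3, which do not stand for the gene, were called higher (2.04 and 1.40). Further probe sets of NAC19 (-1.20), LOC100814504 (-1.40) and LOC100170714 (-1.02), genes of the same list, were called lower. Of 42 bZIP genes 3 fell, a share close to that over all genes, and none rose. Of 30 MYB genes 4 fell and 2 rose. Among members of these lists that were not called, further probe sets of WRKY24 (-1.22), WRKY4 (-1.21), BZIP77 (-1.72), MYB133 (-1.19 and -1.28) and MYB145 (-1.48) were called lower. A further probe set of BZIP105 was called higher (1.02). LOC778196, listed with the synonym bZIP107, had 3.18, 3.97 and 4.58, against 6.04 and 5.97 (-2.09 ± 0.35), and BZIP114 and BZIP113 were at -1.68 and -1.41. MYB136 (-1.56) and MYB92 (-1.48) fell, whereas MYB149 rose (1.32 ± 0.17), with 4.37, 4.35 and 4.31 under stress, against 2.78 and 3.27 without it. HDL56, a homeodomain leucine zipper gene whose signal declines from R6 to R8, had 2.11, 3.48 and 3.34, against 4.64 and 4.98 (-1.83 ± 0.39).

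Several regulators moved in opposite directions at R6 and R7. NAC12 was 3.94 higher on the log2 scale in stressed R6 seeds and -2.10 ± 0.68 at R7, where its signals were 2.72, 3.33 and 4.07 under stress, against 5.33 and 5.61 without it. Its call at R7 was lost without stressed replicate 1, without non-stressed replicate 1 and without non-stressed replicate 2 (adjusted p of 0.0702, 0.0634 and 0.0972). NAC51 (1.43 at R6, -1.28 at R7), NAC26 (2.23 and -1.29), MYB184 (1.97 and -2.26) and SARK, a receptor kinase known from leaf senescence (1.79 and -1.02), had the same pattern. Of these, NAC26 and SARK each lost the R7 call when any 1 of 4 R7 arrays was left out, and MYB184 lost it without non-stressed replicate 1. Of the 9 heat stress transcription factors measured, HSF-15 and HSF-14 fell at R7 (-1.21 ± 0.17 and -1.04 ± 0.18) and none rose. At R6 HSF-15 had risen under stress (1.03) and HSF-14 was at 0.93, under 2-fold. HSF-14 was at -0.93 with the medians set to one value, and without stressed replicate 1 or non-stressed replicate 2 it was not called.

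GSTU62, a tau glutathione transferase, had 3.89, 4.50 and 5.43 in stressed R7 seeds, against 6.67 and 6.98 in non-stressed R7 seeds (-2.22 ± 0.36, adjusted p = 0.000392). It was the only 1 of 34 antioxidant and glutathione transferase genes to fall, and GSTU47 was the only 1 to rise (1.03 ± 0.18), though not without stressed replicate 1 or non-stressed replicate 2. Other probe sets of GSTU41 (2.05) and GSTL3 (1.15), genes of that list, were called higher. Of 21 cytochrome P450 genes, 3 fell and none rose. CYP71A9 was 4.14-fold lower and CYP93A1, which acts in the synthesis of the soybean phytoalexins, 4.08-fold lower. LOC100780605, the third, had 0.58, 0.77 and 1.47, against 2.83 and 3.24 (-2.10 ± 0.24). Other probe sets of the P450 genes CYP82A3 (-2.29) and CYP93E1 (-1.19) were called lower. Among 8 tocopherol and carotenoid genes, BCH5, a carotene hydroxylase, fell (-1.18 ± 0.21), and PTOX, the plastid terminal oxidase, was at least 1.85-fold lower (adjusted p = 0.0191), since its stressed mean lay at the background. PTOX lost its call without stressed replicate 1 and without either non-stressed replicate, and with the medians set to one value 1 member of that list rose and 1 fell. ATG6, an autophagy gene, fell by 1.40 on the log2 scale.

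**Figure D4:**
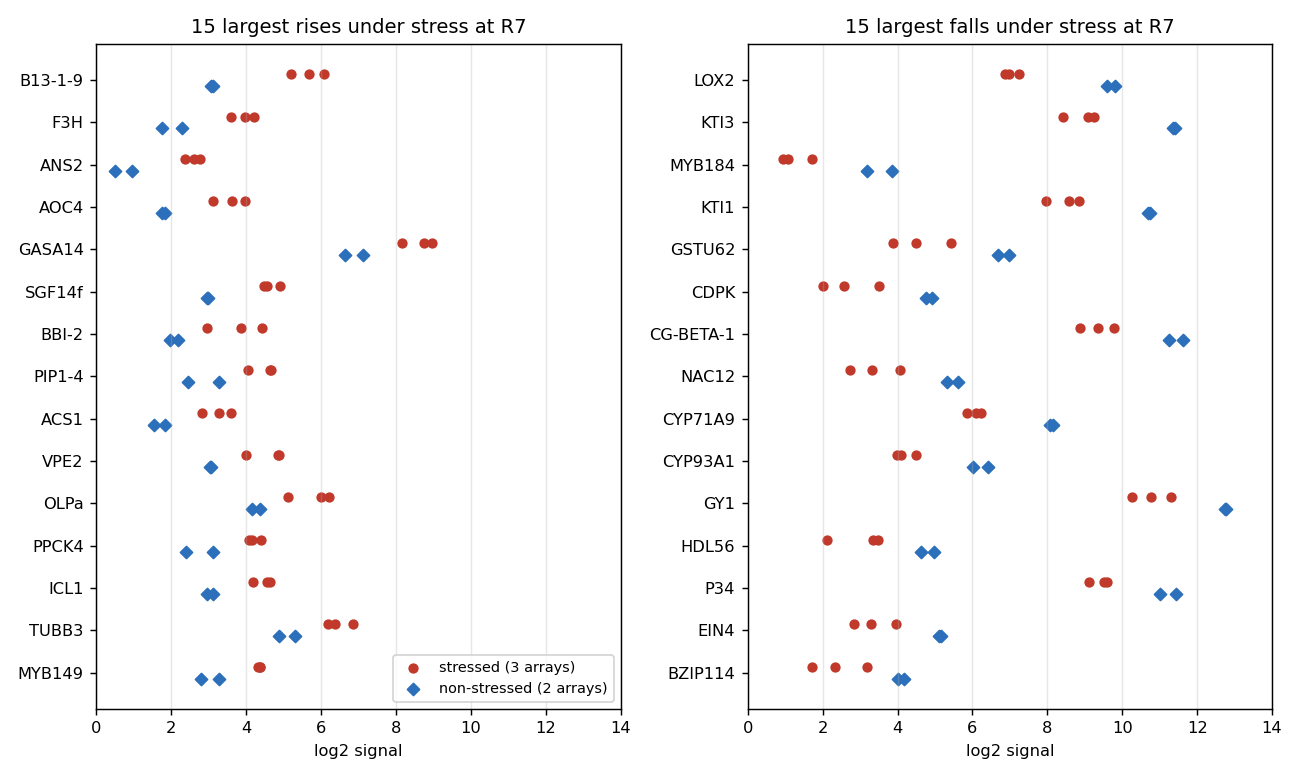
Log2 signal on each R7 array for the 15 named genes that rose most and the 15 that fell most, of those called without overlap (red circles, 3 stressed arrays; blue diamonds, 2 non-stressed arrays). In LOX2 the stressed arrays lie at 6.88 to 7.23, against 9.59 and 9.81 for the non-stressed arrays, and in F3H at 3.60 to 4.21, against 1.74 and 2.29.

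Among the largest rises in named genes were transcripts that are high at R6 and decline towards R8. Of all probe sets that rose at R7, 39.8% declined over maturation. B13-1-9 had 6.07, 5.68 and 5.20 in stressed R7 seeds, against 3.05 and 3.11 in non-stressed R7 seeds (2.57 ± 0.22, adjusted p = 9.69e-06), a 5.93-fold rise. F3H, the flavanone 3-hydroxylase of the flavonoid pathway, had 4.21, 3.95 and 3.60, against 1.74 and 2.29 (1.90 ± 0.24, adjusted p = 7.43e-05). ANS2, an anthocyanidin synthase further along the same pathway, had 2.75, 2.61 and 2.36, against 0.49 and 0.94. Its non-stressed mean was at the background, so it was at least 3.19-fold higher (adjusted p = 0.000754). Stressed replicate 3 was the lowest stressed array in all 3 genes and still lay above both non-stressed arrays.

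Of 12 jasmonate and lipoxygenase genes 2 rose (AOC4 and AOC3) and 2 fell (LOX2 and LOX1.1), and of 3 ethylene genes ACS1 rose and EIN4 fell. Of the other probe sets of COI1, a jasmonate gene that was not called, 2 were called higher (2.03 and 1.23) and 2 were not called. AOC4, an allene oxide cyclase of jasmonate synthesis, had 3.96, 3.63 and 3.10 in stressed R7 seeds, against 1.75 and 1.83 in non-stressed R7 seeds (1.77 ± 0.23, adjusted p = 0.000102). ACS1, which makes the ethylene precursor, had 3.27, 3.60 and 2.82, against 1.82 and 1.53 (1.55 ± 0.24, adjusted p = 0.000263). AOC3 rose less (1.04 ± 0.34), its conditions overlapped (2.54 to 3.19, against 1.22 and 2.56), and its other probe set was at -0.13. Without non-stressed replicate 2 its fold change was 0.37, and it was not called there or without stressed replicate 1 or 2. GASA14, of the gibberellin-regulated peptide family, had 8.97, 8.75 and 8.15, against 6.63 and 7.13 (1.74 ± 0.22) and was the only 1 of 11 gibberellin genes that was called.

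At R6 the same genes had been lower under stress. The R6 fold changes were -3.57 for AOC4, -2.61 for ACS1, -1.69 for F3H, -1.51 for B13-1-9 and -1.46 for ANS2, and the R7 minus R6 differences were 5.34, 4.16, 3.59, 4.08 and 3.32, all called. From R6 over R7 to R8, F3H averaged 6.16, 3.92 and 0.72 in stressed seeds and 7.85, 2.02 and 0.76 in non-stressed seeds. Without non-stressed replicate 1, the array with the lowest ribosomal RNA signal, F3H was at 1.63, ANS2 at 1.63, AOC4 at 1.73 and ACS1 at 1.70. The non-stressed R7 array then left, replicate 2, also lay outside the range of the other 11 arrays in its controls. This fit too cannot tell the stress from the difference in controls.

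The flavonoid list as a whole did not move one way. Of its 32 measured genes, 2 rose (F3H and ANS2) and 4 fell. Those that fell were CYP93A1 and 4CL, a coumarate-CoA ligase at the entry of the pathway (-1.30 ± 0.21), and also CHS1 (-1.18 ± 0.45) and IF7GT (-1.11 ± 0.18), both named after their values were seen. CHS1 encodes a chalcone synthase and IF7GT an isoflavone glucosyltransferase. The median fold change of the list was -0.36. Among members that were not called, another probe set of CHI4A was called higher (1.41) and another of CYP93E1 lower (-1.19). IFS1 and IFS2, the isoflavone synthases, were at 0.14 and 0.15. The number that fell was 2 after a further quantile normalization. CHS1 and IF7GT were not called without stressed replicate 2 or without non-stressed replicate 1, nor was CHS1 without stressed replicate 3.

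Of 4 cytoskeleton genes, TUBB3 and TUBB2, both beta tubulins, rose (1.38 ± 0.20 and 1.07 ± 0.14). Another probe set of PRO2, a member of that list that was not called, was called higher (1.03). TUBB3 had 6.85, 6.37 and 6.18 in stressed R7 seeds, against 5.30 and 4.87 in non-stressed R7 seeds, and TUBB2 was not called without stressed replicate 1. The 6 translation genes had fold changes from 0.29 to 1.03. Of these only EF1BGAMMA4, an elongation factor subunit, was called. It was at 0.81 without non-stressed replicate 1, and was not called without stressed replicate 1 or 2 either. Other probe sets of RPL2 (1.06), RPS13 (1.13), RPS6 (1.03 and 1.69) and TEFS1 (1.03) were called higher, so the translation result depends on the probe set. SGF14f, a 14-3-3 protein, had 4.48, 4.89 and 4.54, against 2.95 and 2.97 (1.68 ± 0.19). VPE2, a vacuolar processing enzyme of the kind that matures or degrades vacuolar proteins, rose by 1.52 ± 0.24, with 4.84, 4.87 and 3.98, against 3.05 and 3.03. PIP1-4, a plasma membrane aquaporin, rose (1.59 ± 0.29) and the other 13 aquaporins did not pass, among them PIP1-7 and PIP1-10 at 0.03 and 0.11. Another probe set of LOC547794, 1 of these 13, was called higher (2.63).

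A few genes were higher under stress in all 3 stages. ICL1, the isocitrate lyase of the glyoxylate cycle, had 4.57, 4.63 and 4.17 in stressed R7 seeds, against 3.11 and 2.94 in non-stressed R7 seeds (1.43 ± 0.22, adjusted p = 0.000284). Its fold change was 5.06 at R6 and 4.40 at R8, and the R7 response was lower than each by 3.63 and 2.97, both called. The second ICL1 probe set was at 0.24 and was not called at R7. STP1, a sugar transporter, had fold changes of 2.51, 1.32 and 1.54 at R6, R7 and R8, and its second probe set was at -0.60 at R7. OLPa, an osmotin-like defence protein, had 4.56, 1.51 and 1.21. LOC547820, a vegetative storage protein gene, had 1.04, 1.33 and 2.92, and was not called at R7 without non-stressed replicate 2. PPCK4, a kinase that activates phosphoenolpyruvate carboxylase, differed from these in being lower under stress at R6 (-1.5) and higher at R7 (1.45 ± 0.21) and R8 (2.20).

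None of the 3 stay-green genes measured was called at R7 by limma, and 1 had an unadjusted p of at most 0.05. SGR1 had 8.31, 8.41 and 8.51 in stressed R7 seeds, against 8.15 and 8.30 in non-stressed R7 seeds (0.18 ± 0.13, adjusted p = 0.266), with a 95% interval of -0.10 to 0.47. SGR2 had 7.45, 7.60 and 7.94, against 7.99 and 7.85 (-0.25, interval -0.71 to 0.20). In SGR1 the stressed arrays were all slightly above the non-stressed ones, and in SGR2 the conditions overlapped. SGR had 5.75, 5.43 and 5.59, against 6.25 and 6.29, and its change of -0.68 (interval -1.08 to -0.28, adjusted p = 0.00791) was under 2-fold. At R8 SGR1 was higher under stress by 1.06, and the R7 minus R8 difference of -0.88 for SGR1 had an adjusted p of 0.00285 but was under 2-fold.

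The photosynthesis genes changed little. Of 7 genes of the light reactions and carbon fixation, none was called, 3 had an unadjusted p of at most 0.05 and fold changes ran from -0.48 to 0.70. PSAD, a photosystem I subunit, was at -0.48 ± 0.12 and PETC, of the cytochrome b6f complex, at 0.27 ± 0.23. CAB3, a chlorophyll-binding protein of the antenna, had 5.22, 4.72 and 4.50 in stressed R7 seeds, against 4.13 and 4.10 in non-stressed R7 seeds (0.70 ± 0.17). Another CAB3 probe set was called in the opposite direction (-2.02, adjusted p = 0.000495), so the direction of CAB3 depends on the probe set. At R6 CAB3 had been lower under stress (-1.67), and the R7 minus R6 difference was 2.36 (adjusted p = 4.57e-06).

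The measured desiccation genes changed by less than 2-fold, by the probe sets that stand for them. None of the 30 LEA, dehydrin and seed maturation protein genes was called, their fold changes ran from -0.54 to 0.35, and every 95% interval lay between -1.02 and 0.58. PM1 had 11.99, 12.03 and 12.08 in stressed R7 seeds, against 11.99 and 12.03 in non-stressed R7 seeds. PM39 had the lowest fold change, with 11.04, 11.20 and 11.58, against 11.74 and 11.89 (-0.54, adjusted p = 0.0582), and was the only 1 of the 30 whose response differed from that at R6 (by -1.33). Unadjusted p-values of at most 0.05 were found for 10 of the 30, and for 56.8% of all probe sets. The conditions did not overlap for 15 of the 30, beside 63.9% of all probe sets. For 2 of the 30 the response at R7 was called below that at R8. Most of these genes had signals above 10, where saturation can compress a difference. A second probe set of PM30 was called higher (1.01), whereas its other probe sets were at -0.07 and -0.12.

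Heat shock protein genes also did not pass at R7. Of the 7 measured, none was called and 1 had an unadjusted p of at most 0.05. HSP17.5-E, from the small heat shock family, gave 7.98, 8.02 and 8.18 in stressed R7 seeds, against 7.09 and 7.33 in non-stressed R7 seeds, without overlap, but its fold change of 0.85 had an SE of 1.05 in the fit over all arrays, in which the stressed R6 arrays differed widely (SD 2.92, n = 3). At R6 its fold change was 3.66. HSP90A1 was at -0.81 ± 0.92, with 5.93, 5.96 and 6.51, against 6.87 and 7.02. None of 8 fermentation and aldehyde dehydrogenase genes, 5 chlorophyll and haem synthesis genes, 5 seed coat genes or 4 abscisic acid genes was called at R7 by limma, and 4, 2, 2 and 2 of them had an unadjusted p of at most 0.05. Of the chlorophyll and haem synthesis genes, GSA1 had other probe sets that were called higher (1.24 and 2.25). GSA1 itself was called with the medians set to one value.

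Single genes were called in several other lists. PHR13, a MYB-type gene named for the phosphate starvation response, had 6.77, 6.71 and 6.44 in stressed R7 seeds, against 5.57 and 5.31 in non-stressed R7 seeds (1.20 ± 0.13). It was the only 1 of 12 phosphate genes that was called, and 6 of the 12 had an unadjusted p of at most 0.05 by limma. DREB, of the dehydration-responsive factors, had 7.78, 7.63 and 7.29, against 6.47 and 6.59 (1.03 ± 0.17), and RLK3, a receptor-like kinase, had 4.67, 3.91 and 3.41, against 3.27 and 2.56 (1.08 ± 0.30). Neither kept the call without stressed replicate 1. PRP3, a proline-rich cell wall protein, was at least 2.21-fold lower, with 0.76, 0.74 and 0.84, against 1.86 and 2.22. ADR12 (-1.07), CYP17, a cyclophilin (-1.05), PDIL-2, a protein disulfide isomerase (-1.13), ITPK2, an inositol phosphate kinase (-1.02), and NOD33 (-1.08) fell by little over 2-fold, and each lost the call without at least 1 R7 array. Other probe sets of PDIL-2, ITPK2 and PRP3 were not called.

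**Figure D5:**
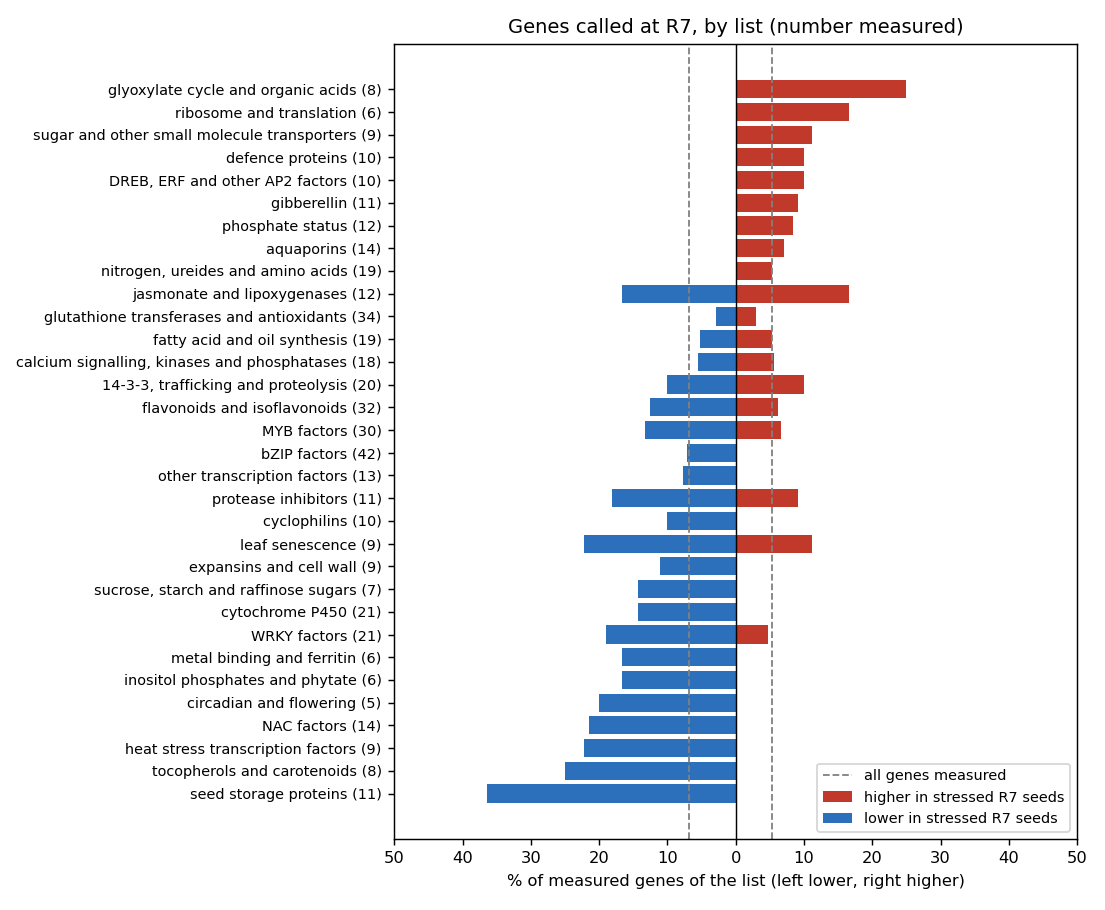
Share of the measured genes in each list that were called at R7, lower in stressed seeds to the left and higher to the right, for lists with at least 5 measured genes and at least 1 call (number measured in brackets). Dashed lines mark the share over all 4363 genes (6.88% lower and 5.25% higher), and the seed storage list has 4 of 11 genes lower and none higher.

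The response at R7 differed from those at the neighbouring stages over much of the array. The R7 minus R6 difference was called for 7478 probe sets (39.0%), with 17.1% above and 21.8% below 0, and the R7 minus R8 difference for 4481 (23.3%), with 9.22% above and 14.1% below 0. Of the 2293 probe sets that fell at R7, 2039 were below their R6 response, 1419 below their R8 response and 1309 (57.1%) below both. Of the 1270 that rose, 976, 819 and 715 (56.3%) were above R6, R8 and both. Over all probe sets, 7.58% rose and 7.35% fell at R6, and 6.01% rose and 2.46% fell at R8. Of the probe sets that fell at R7, 1.96% also fell at R6 and 3.49% at R8, while 13.8% rose at R6 and 5.36% at R8. Of those that rose at R7, 8.5% rose at R6 and 12.4% at R8, while 12.2% fell at R6 and 2.44% at R8. The R7 arrays enter both differences, so these counts are not independent of the R7 calls.

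The largest changes among probe sets without a gene name exceeded those of the genes named above. Of 37593 soybean probe sets 28546 have no gene, so these extremes come from a larger pool. GmaAffx.85753.1.S1_at had 2.01, 1.19 and 2.85 in stressed R7 seeds, against 7.17 and 6.74 in non-stressed R7 seeds, a 30.7-fold fall (-4.94 ± 0.77, adjusted p = 0.000295). GmaAffx.87466.1.S1_at had 0.10, 0.18 and 1.73, against 5.04 and 5.26, and was at least 19.1-fold lower (adjusted p = 0.00024), as its stressed mean was below the background. Both rise over maturation in non-stressed seeds, to 6.86 and 6.18 at R8. GmaAffx.92641.1.S1_s_at rose, with 11.81, 11.15 and 10.48, against 7.80 and 7.98 (3.26 ± 0.35, adjusted p = 3.67e-05). GmaAffx.89772.42.S1_x_at had 10.80, 10.58 and 10.93, against 5.51 and 9.25 (3.39 ± 0.68, adjusted p = 0.00139), so that its size rests on the non-stressed replicate with the lower ribosomal RNA signal. At R6 and R8 neither of the last pair was called.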

How the data were processed

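Affymetrix Soybean Genome arrays were hybridized with total RNA from whole seeds. The deposited values are log2 signals that the authors background-corrected, normalized and summarised per probe set by RMA. The version is not given in the sources used here. That background correction sets how large a fold from a low signal can be. The number of arrays limits the precision, and no depth applies.

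Of 37593 soybean probe sets, 19194 averaged above 3 in 1 or more of the 6 conditions. A probe set listed with several genes (370) was not named. For each gene, the probe set with the highest mean stood for it. One mean per condition was fitted over 16 arrays with limma 3.58.1 in R 4.3.3 (lmFit, eBayes). P-values are two-sided and adjusted by Benjamini-Hochberg over all probe sets tested. Calls needed a 2-fold change and an adjusted p of at most 0.05. An exact test on 3 against 2 arrays cannot go below 0.1. A called gene with a group mean at or below 0.90 is given as a bound. P-values measure the spread between the replicates, which pool several plants.

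The genes and 46 lists were chosen with earlier results of these data known. Named were the 15 largest rises and falls without overlap among genes with a name, up to 4 called members of each list, and the 2 largest unnamed rises and falls. The stay-green genes SGR, SGR1 and SGR2 and the photosynthesis genes CAB3, PETC and PSAD were also named. By symbol, the chlorophyll breakdown list held only the stay-green genes, so the paper's NYC1, PPH, PAO, RCCR and CLH genes are not covered. The lists rest on symbols and synonyms, and 5 were added once the symbol tables had been opened. The fit was checked on simulated data. No batch is given by the labels. The alternatives changed the signal filter, the scaling, the arrays fitted, the variance settings, the array weights and the replicate block, or left out 1 R7 array.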

Additional observations from a re-analysis of the deposited data

Results flagged for a closer look

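The response to stress at R7 differed from that at R6 for 7478 probe sets and from that at R8 for 4481, by the test of the difference in limma. Among the 81 genes and probe sets chosen for naming, the numbers were 64 and 55.

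In 16 of these the calls at R7 and R6 had opposite directions. The R7 minus R6 difference was below 0 for GmaAffx.87466.1.S1_at (-6.07), NAC12 (-6.04), MYB184 (-4.23), CYP93A1 (-3.92), NAC26 (-3.52), LOC100780605 (-3.36), SARK (-2.81), NAC51 (-2.71) and HSF-15 (-2.24). It was above 0 for AOC4 (5.34), ACS1 (4.16), B13-1-9 (4.08), F3H (3.59), ANS2 (3.32), PPCK4 (2.95) and AOC3 (2.39).

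In 12 the calls at R7 and R8 had opposite directions. The R7 minus R8 difference was below 0 for KTI3 (-5.72), GY5 (-5.19), SFERH-2 (-5.10), GY1 (-4.51), LOC547931 (-3.95), LOC100780605 (-3.58), P34 (-3.24), MYB92 (-3.10), FAD3B (-2.51), LOX1.1 (-2.24) and NOD33 (-2.12), and above 0 for BBI-2 (3.16).

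Data outside the soybean probe sets also separated the R7 conditions. The median log2 signal of ribosomal RNA probe sets was 9.05 ± 0.12 in stressed and 6.94 ± 0.90 in non-stressed R7 seeds (SD, n = 3 and n = 2), a difference of 2.11. The actin 3′ minus 5′ signal was 2.45 ± 0.18 in stressed and 3.72 ± 0.76 in non-stressed R7 seeds, a difference of -1.27. Of the probe sets for other organisms, 39 had a mean log2 signal above 3 in stressed and 30 in non-stressed R7 seeds.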

How the results depend on the processing

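The counts of probe sets called at R7, of R7 responses that differed from R6 or R8, and of R7 calls by their direction over maturation stayed within 1.5 times their reported values under every alternative run. The R6 calls did not: of 2864 (1410 of them falls), 1901 (686 falls) were left when a mean above 3 in an R7 condition was required, which tests fewer probe sets. Calls at R7 numbered 2817 to 4417 when 1 R7 array was left out, 3386 with the 5 R7 arrays alone, 3936 without a signal filter and 3124 with array weights, whose estimation stopped before it converged. With the medians set to one value they numbered 3545, and 3460 when only the 5 R7 arrays were also used, an alternative chosen after seeing the data. The share of falls that rose over maturation was 58.2% to 66.5% when 1 R7 array was left out. Of 75 named genes and probe sets called at R7, 52 kept the call under all alternatives run for them and none reversed. Most calls were lost with array weights (14) and without stressed replicate 1 (13). For each lost call the cause was not tested. With the replicate number as a block, 3504 probe sets were called and 3 named genes lost the call (GSTU47, NAC26 and NOD33). Arrays with the same number at R7 deviated together by correlations of 0.27 and 0.04, and -0.22 to 0.37 at R6, so that the numbers were not used as pairs. With 2 and 3 arrays, signals near the background or the highest value limit what can be measured.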
